A study of Sus scrofa with 12 samples.

Results

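The genes described here lie at or near loci that carry risk of intracranial aneurysm (IA) in humans, or have been linked to familial IA. The list held 10 symbols, namely PLCE1, HYKK, PSMA4, CNNM2, NT5C2, RBBP8, FGD6, THSD1, STARD13 and SOX17. Through their pig gene identifiers 8 of them could be matched among the 21153 genes of the count table, and these 8 were analysed. STARD13 and SOX17 had no matching identifier and were not analysed here.

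An IA is a bulge of a brain artery wall, often at a branch point. Endothelial cells (ECs) line the artery and sense the drag of flowing blood, called wall shear stress (WSS). A risk locus marks a stretch of the human genome and does not say which of its genes acts, in which cell type, or in which direction. The listed genes have unrelated roles, from lipid signaling and cell adhesion to ion transport, DNA repair and protein breakdown.

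RNA-seq was performed on primary porcine arterial ECs kept for 48 h under constant laminar flow at 2 dyne/cm2 (low aneurysmal WSS), 30 dyne/cm2 (physiological WSS) or 80 dyne/cm2 (supra-high aneurysmal WSS). Cells of 3 donor pigs, given by replicate number, entered every condition, and 30 dyne/cm2 was run as 2 sets, which gave 12 libraries with 3 per condition. Each set at 30 dyne/cm2 served as the control of one aneurysmal WSS. Set 1 was compared with 2 dyne/cm2 and set 2 with 80 dyne/cm2, within donor.

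All cultures were untreated apart from flow, on gelatin-coated slides in medium with serum and heparin. The pigs were 8 months old and came from a slaughterhouse. GEO's labels call the cells aortic and the study's methods call them coronary, so the artery is left as arterial. According to the labels, slide type and seeding density differed between the low and the supra-high experiments, and each has its own control. The study's methods instead name a single slide type and seeding density for the flow experiments. They describe each comparison as made within the same donor and cell passage. Which account holds for these libraries was not tested. These are isolated ECs from arteries of pigs outside the brain, cultured without added smooth muscle cells or blood, and not cerebral arteries of people with IA.

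Libraries held 29606854 to 41058902 counts (median 33871914). The flow response was checked on KLF2 and KLF4, transcription factors induced by laminar flow, and NOS3, the endothelial nitric oxide synthase. All 3 were down-regulated at 2 vs. 30 dyne/cm2, with log2 fold changes of -4.35, -2.62 and -1.86 and adjusted p-values of 0.00906, 0.00924 and 0.00721 (edgeR). All 7 matched endothelial markers were detected. Their summed level per library was 4699 to 5654 CPM (counts scaled to a common library size) at 2 dyne/cm2, 6806 to 7793 in set 1, 6417 to 7463 in set 2 and 8126 to 8250 at 80 dyne/cm2. Smooth muscle markers summed to 44.2 to 84.0 CPM over the 12 libraries, with DES at 0 counts in all of them. Most of this sum was SMTN, with a mean of 74.0 CPM at 2 dyne/cm2 and 73.2 in set 1. MYH11, ACTA2, TAGLN and CNN1 had at most 26, 17, 19 and 5 counts in any library. Fibroblast markers reached 193 CPM at 2 dyne/cm2, 89.2 in set 1, 219 in set 2 and 112 at 80 dyne/cm2, and these ranges over 3 donors overlapped between conditions. Within donors, the 4 fibroblast markers tested at 2 vs. 30 dyne/cm2 had a median log2 difference of 1.03, where PDGFRA was called, COL1A2 (0.96, adjusted p = 0.0325, edgeR) passed the adjusted p alone, and COL1A1 (1.44) and LUM (-0.11) did not. The 3 tested at 80 vs. 30 dyne/cm2 had a median of -1.34 with none past the adjusted p, and 3 of 4 passed in the difference between the responses. Leukocyte markers summed to at most 32.0 CPM, and CD68, also expressed outside leukocytes, was down-regulated at 2 vs. 30 dyne/cm2 (-1.17, SE 0.15, adjusted p = 0.00961, edgeR). In bulk RNA, fewer cells of a type and less RNA per cell cannot be told apart, and the part of cell composition in the results below was not tested.

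At 2 vs. 30 dyne/cm2, HYKK was up-regulated and THSD1 was down-regulated. These were the 2 of 8 genes called, that is, changed at least 2-fold with an adjusted p under 0.05 in edgeR's quasi-likelihood test with a donor term and Benjamini-Hochberg adjustment over all genes. Among all 11226 genes tested, 9.6% were called, 5.06% up and 4.54% down. RBBP8 passed the adjusted p but not 2-fold, PLCE1 and CNNM2 were over 2-fold but missed the adjusted p, and NT5C2, FGD6 and PSMA4 did neither. HYKK and THSD1 were also called without the donor term, where 5.66% of all genes were. Supra-high WSS gave 0 calls among the 8 genes, against 2.2% of all 11187 genes tested at 80 vs. 30 dyne/cm2. All 8 genes passed the filter on low values in both comparisons. CNNM2 did so at 2 vs. 30 dyne/cm2 through the libraries at 2 dyne/cm2, where it was high.

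**Figure D1:**
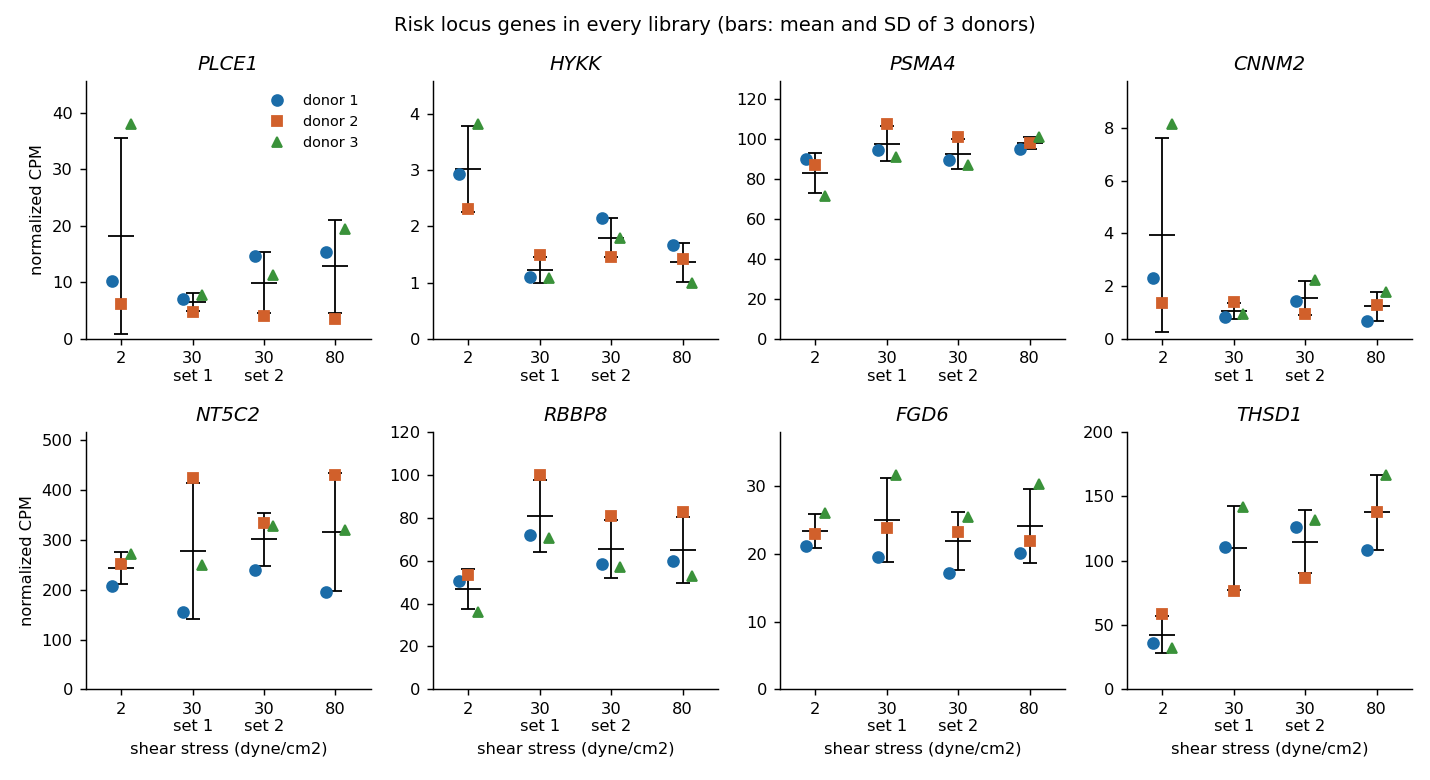
Normalized CPM (vertical axis, linear and starting at 0, one scale per gene) of the 8 risk locus genes in each of the 12 libraries, by WSS on the horizontal axis, with donors as symbols and the mean and SD of 3 donors as black bars. HYKK was higher and THSD1 and RBBP8 were lower in all 3 libraries at 2 dyne/cm2 than in any library of set 1, and the spread of PLCE1 and CNNM2 at 2 dyne/cm2 came from donor 3 at 38.1 and 8.15 CPM.

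HYKK (ENSSSCG00000001755, chromosome 7, 47451822 to 47474778 on Sscrofa11.1) encodes a kinase of hydroxylysine, an amino acid released when collagen is broken down. Its normalized CPM at 2 dyne/cm2 was 2.93 in donor 1, 2.31 in donor 2 and 3.83 in donor 3. In set 1 at 30 dyne/cm2 it was 1.11, 1.49 and 1.08 in the same order. The lowest library at low WSS lay above the highest at physiological WSS, so the groups did not overlap. The mean was 3.02 ± 0.763 CPM (SD, n = 3) at 2 dyne/cm2 and 1.22 ± 0.231 at 30 dyne/cm2. The log2 fold change was 1.29 (SE 0.29, 95% interval 0.56 to 2.02, adjusted p = 0.0325, edgeR), a 2.45-fold increase. It was up in 3 of 3 donors, with within-donor log2 ratios of 1.396, 0.63 and 1.81.

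HYKK had few reads, at 32 to 114 counts per library, and its estimate moved with the control and with the donors. Against set 2, where HYKK stood at 2.16, 1.46 and 1.79 CPM, the increase was 0.73 on the log2 scale with an adjusted p of 0.0562. Without donor 1 it was 1.23 with an adjusted p of 0.0938, and without donor 3 it was 1.03 with an adjusted p of 0.09, both by edgeR. The call was therefore lost without either of these donors, although the direction was the same in each of these fits.

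THSD1 (ENSSSCG00000009377, chromosome 11, 15668435 to 15698031) encodes a transmembrane protein with a thrombospondin type repeat, found in ECs at sites of adhesion to the matrix, and is known as a familial IA gene. At 2 dyne/cm2 its normalized CPM was 36.0, 58.7 and 32.3 in donors 1, 2 and 3. In set 1 at 30 dyne/cm2 it was 111, 76.4 and 142. Each library at low WSS was below each library at physiological WSS, and donor 2 had the highest level of the former and the lowest of the latter. Means were 42.3 ± 14.3 CPM (SD, n = 3) against 110 ± 32.8 CPM. The log2 fold change was -1.38 (SE 0.35, 95% interval -2.28 to -0.48, adjusted p = 0.0454, edgeR), which left 0.384 of the physiological level.

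The decrease of THSD1 differed in size between donors, with within-donor log2 ratios of -1.62, -0.38 and -2.14. The call was lost without donor 1 (adjusted p = 0.0809, edgeR) and without donor 3, where the log2 fold change was -0.99 with an adjusted p of 0.12. It was kept without donor 2, at -1.87. Set 2 held 126, 86.6 and 131 CPM, so that the libraries at 2 dyne/cm2 were also below all libraries of the other control. Against set 2 the log2 fold change was -1.47 (SE 0.31, adjusted p = 0.0312). The summed endothelial markers given above were likewise lower at 2 dyne/cm2 than in either set, and their part in the level of THSD1 was not tested. Of the 7 markers, TEK was called (-2.95, SE 0.24, adjusted p = 0.00479, edgeR). PECAM1 (-0.71) and ESAM (-0.56) passed the adjusted p alone, whereas KDR (-1.27), CDH5 (-0.11), TIE1 (-0.18) and ERG (-0.22) did not.

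RBBP8 (ENSSSCG00000024419, chromosome 6, 107923921 to 108020067) encodes CtIP, which starts the trimming of broken DNA ends for repair by recombination. At 2 dyne/cm2 it stood at 50.5, 53.3 and 36.2 CPM in donors 1, 2 and 3. In set 1 it stood at 71.9, 100 and 70.6 CPM. The groups did not overlap, and the level was lower at 2 dyne/cm2 in 3 of 3 donors. The log2 difference was -0.79 (SE 0.12, 95% interval -1.09 to -0.49, adjusted p = 0.014, edgeR), or 0.578 of the physiological level, which is less than a 2-fold change. Its standard error was close to that of FGD6 and PSMA4 and well below that of HYKK and THSD1. The adjusted p was 0.0607 without the donor term and 0.0508 without donor 2. With the adjusted p alone as the rule, 3 of 8 genes passed at 2 vs. 30 dyne/cm2, against 25.8% of all genes.

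PLCE1 (ENSSSCG00000010483, chromosome 14, 105422628 to 105764736) encodes phospholipase C epsilon, which cleaves a membrane phosphoinositide on signals from small GTPases. Its CPM at 2 dyne/cm2 was 10.3, 6.11 and 38.1 in donors 1, 2 and 3, and in set 1 it was 7.08, 4.65 and 7.78. Each donor was higher at low WSS, but the groups overlapped, since donor 2 at 2 dyne/cm2 lay below donors 1 and 3 at 30 dyne/cm2. The log2 difference was 1.09 (SE 0.41, 95% interval 0.03 to 2.15, adjusted p = 0.11, edgeR). Without donor 3 the value was 0.48, since the within-donor log2 ratio was 2.29 in donor 3 and 0.54 and 0.39 in donors 1 and 2.

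CNNM2 (ENSSSCG00000010593, chromosome 14, 113888970 to 114060369) encodes a membrane protein of magnesium handling. The 3 donors had 2.32, 1.37 and 8.15 CPM at 2 dyne/cm2 and 0.835, 1.401 and 0.928 CPM in set 1. Donor 3 stood apart at low WSS, and donor 2 had nearly the same level in both conditions. The log2 difference was 1.57 (SE 0.62, 95% interval -0.03 to 3.17, adjusted p = 0.124, edgeR), and it was 0.74 without donor 3. CNNM2 had 25 to 243 counts per library and PLCE1 had 114 to 1134. At 2 vs. 30 dyne/cm2, CNNM2 passed the filter through the libraries at 2 dyne/cm2, where it was high. In set 1 only donor 2 reached 1 CPM. A gene at its level thus had to differ to be tested at all, and without donor 2 CNNM2 did not pass the filter. The adjusted p of CNNM2 was 0.0287 when the dispersion was estimated over all 12 libraries and 0.0443 with DESeq2. For PLCE1 it was 0.0234 with DESeq2.

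PSMA4 (ENSSSCG00000036924, chromosome 7, 47440576 to 47448599), a subunit of the proteasome core, lies 3223 bases from HYKK on the pig assembly. Its CPM was 89.9, 87.1 and 71.6 at 2 dyne/cm2 and 94.4, 107 and 91.2 in set 1. The groups did not overlap, though the highest library at low WSS and the lowest at physiological WSS nearly met. Its log2 difference was -0.24 (SE 0.09, 95% interval -0.47 to -0.0026, adjusted p = 0.115, edgeR). HYKK and PSMA4 thus had estimates of opposite sign at low WSS.

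NT5C2 (ENSSSCG00000010594, chromosome 14, 114062451 to 114167460), a cytosolic nucleotidase acting on purine nucleotides, begins 2082 bases beyond CNNM2. At 2 dyne/cm2 it had 208, 252 and 271 CPM in donors 1, 2 and 3, and in set 1 it had 156, 425 and 251. The groups overlapped fully, and donor 2 was lower while donors 1 and 3 were higher at low WSS. Its log2 difference was -0.07 (SE 0.23, 95% interval -0.67 to 0.53, adjusted p = 0.841, edgeR). On the annotation used, the span of PCGF6 overlaps NT5C2, and the strand setting of the counting is not given in the sources used here, so reads of the 2 genes may not be separate.

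FGD6 (ENSSSCG00000000901, chromosome 5, 88087032 to 88229807) encodes an exchange factor for Cdc42, a GTPase that shapes the actin cytoskeleton. It had 21.2, 23.0 and 26.0 CPM at 2 dyne/cm2 and 19.6, 23.8 and 31.7 CPM in set 1. The groups overlapped, and the donors kept the same order in both. The log2 difference was -0.07 (SE 0.11, 95% interval -0.36 to 0.22, adjusted p = 0.663, edgeR). This interval leaves out a 2-fold change in either direction, as do those of PSMA4 and NT5C2. The span of FGD6 overlaps VEZT, with the same limit on its reads. In total, 4 of 8 genes had groups that did not overlap at 2 vs. 30 dyne/cm2, against 37.9% of all genes, and 5 of 8 had the same sign in all 3 donors, against 66% of all genes.

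**Figure D2:**
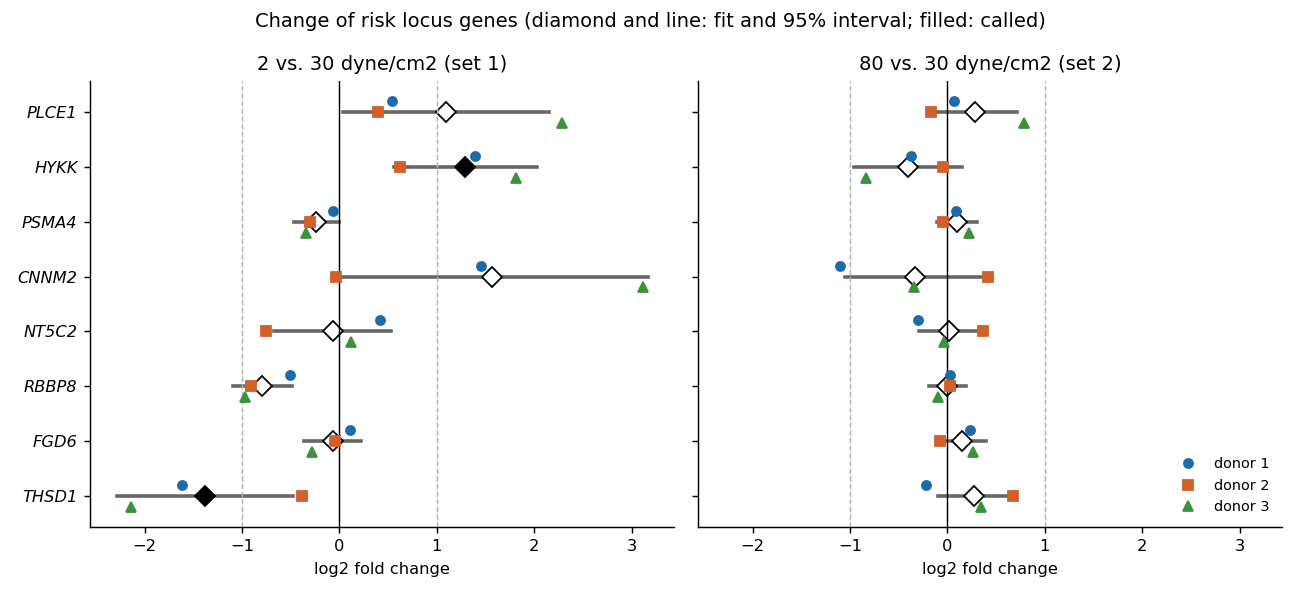
Log2 fold change of the 8 genes at 2 vs. 30 dyne/cm2 (left) and at 80 vs. 30 dyne/cm2 (right), with the fitted value and its 95% interval as diamond and line, filled where called, and the 3 within-donor log2 ratios as colored symbols. Dashed lines mark 2-fold. HYKK (1.29) and THSD1 (-1.38) are the filled diamonds at left, and at right all fitted values lie between -0.41 and 0.28.

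Under supra-high WSS, the fitted log2 differences at 80 vs. 30 dyne/cm2 lay between -0.41 for HYKK and 0.28 for PLCE1, and their 95% intervals all held 0. None of the 8 genes passed an unadjusted p of 0.05, and DESeq2 called 0 as well. THSD1 had 109, 138 and 167 CPM at 80 dyne/cm2 and 126, 86.6 and 131 CPM in set 2. It was higher at supra-high WSS in donors 2 and 3 and lower in donor 1, and the groups overlapped. Its log2 difference was 0.28 (SE 0.16, 95% interval -0.09 to 0.65, adjusted p = 0.311, edgeR). Without donor 1 it was 0.52, below 2-fold, and without donor 2 it was 0.065 (adjusted p = 0.868, edgeR). The fit without donor 1 gave a 95% interval of 0.27 to 0.76 and an adjusted p of 0.000429 (edgeR). With 1 residual degree of freedom, that fit took its spread almost wholly from all genes together. Its p-value therefore does not measure the spread between donors.

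HYKK had 1.67, 1.42 and 0.992 CPM at 80 dyne/cm2, lower than in set 2 in 3 of 3 donors but with overlapping groups. The log2 difference was -0.41 (SE 0.24, 95% interval -0.96 to 0.15, adjusted p = 0.318, edgeR). RBBP8 had 59.8, 82.5 and 53.0 CPM at 80 dyne/cm2 and 58.5, 80.8 and 56.8 CPM in set 2. Donor by donor these were nearly the same levels, and the 95% interval of the log2 difference ran from -0.19 to 0.19.

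PLCE1 had 15.4, 3.51 and 19.5 CPM at 80 dyne/cm2 and 14.7, 3.93 and 11.3 CPM in set 2. Donor 2 was the lowest in both conditions and donor 3 had the largest ratio. CNNM2 had 0.661, 1.26 and 1.77 CPM at 80 dyne/cm2 against 1.44, 0.945 and 2.25 CPM in set 2. Its interval of -1.06 to 0.39 was the widest of the 8 and did not leave out a 2-fold decrease.

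NT5C2 had 195, 431 and 320 CPM at 80 dyne/cm2 and 240, 335 and 329 CPM in set 2. FGD6 had 20.2, 22.0 and 30.4 CPM against 17.1, 23.2 and 25.4 CPM. PSMA4 had 94.8, 97.7 and 101 CPM against 89.5, 101 and 86.9 CPM. In all 3 genes the groups overlapped and the donors did not share a direction. The log2 differences were 0.02 (SE 0.13), 0.15 (SE 0.11) and 0.10 (SE 0.09). Over the 8 genes, 0 had groups that did not overlap at 80 vs. 30 dyne/cm2, against 14.9% of all genes, and 1, HYKK, had the same sign in all 3 donors, against 49.6% of all genes.

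Whether the responses to low and to supra-high WSS differed from each other was tested directly, as the log2 change at 2 dyne/cm2 minus that at 80 dyne/cm2, each against its own control, in 1 fit of all 12 libraries. Here 3 of 8 genes passed an adjusted p under 0.05, against 37.1% of all 11568 genes tested. The difference was 1.70 for HYKK (SE 0.39, 95% interval 0.81 to 2.58, adjusted p = 0.00881, edgeR). It was -1.59 for THSD1 (SE 0.40, 95% interval -2.50 to -0.69, adjusted p = 0.0129). For RBBP8 it was -0.77 (SE 0.14, 95% interval -1.08 to -0.47, adjusted p = 0.00229), with a change at 80 dyne/cm2 near 0.

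These differences rest on which set is the control of which WSS, an assignment that GEO's labels do not state. With the sets exchanged, a fit added after the data were seen, THSD1 was at -1.75 (SE 0.40, adjusted p = 0.0135, edgeR) and was the one gene of the 8 that passed. HYKK was at 0.60 (SE 0.39, adjusted p = 0.318) and RBBP8 at -0.16 (SE 0.14, adjusted p = 0.444).

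The other 5 genes did not pass this test. CNNM2 had the largest estimate of all 8, 1.95 (SE 0.71, adjusted p = 0.0555, edgeR), and PSMA4 had -0.33 (SE 0.12, adjusted p = 0.0641). PLCE1, FGD6 and NT5C2 had adjusted p-values of 0.249 to 0.829. HYKK and THSD1 no longer passed without donor 1 (adjusted p = 0.0655 and 0.0597) or without donor 3 (adjusted p = 0.0963 and 0.122). RBBP8 passed without each donor, but not without the donor term (adjusted p = 0.129), where 15.1% of all genes passed.

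Both sets at 30 dyne/cm2 had the same WSS, so their difference gives a background measured at equal WSS. Slide type and seeding density, which differed between the experiments according to the labels, may be part of this background, and their part was not tested. None of the 8 genes was called between the sets by edgeR, against 0.00896% of all 11163 genes tested, or by DESeq2, which called 66 genes in all. At an unadjusted p of 0.05 it was only RBBP8, whose log2 difference, set 2 minus set 1, was -0.30 (SE 0.06, adjusted p = 0.115 by edgeR and 0.0459 by DESeq2) and was -0.30, -0.31 and -0.31 within the donors. HYKK, CNNM2 and PLCE1 had estimates of 0.57, 0.53 and 0.49 toward set 2, each higher in 2 of 3 donors. The other 4 genes had -0.18 to 0.23.

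These shifts carry over to the choice of control. With set 2 as the control of 2 dyne/cm2, RBBP8 differed by -0.49 (SE 0.11, adjusted p = 0.0341, edgeR) and CNNM2 by 1.10 (SE 0.32, adjusted p = 0.0653). PLCE1 differed by 0.63 and FGD6 by 0.10, the latter with the other sign than against set 1. NT5C2 differed by -0.30 (SE 0.08, adjusted p = 0.045), less than 2-fold. With both sets together, THSD1 stayed at -1.38 (SE 0.28, adjusted p = 0.00666), HYKK was at 0.98, just under 2-fold, and CNNM2 was called at 1.33 (SE 0.43, adjusted p = 0.0421). All of these fits share the libraries at 2 dyne/cm2, and those with set 2 may also hold differences of slide type and seeding density.

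**Figure D3:**
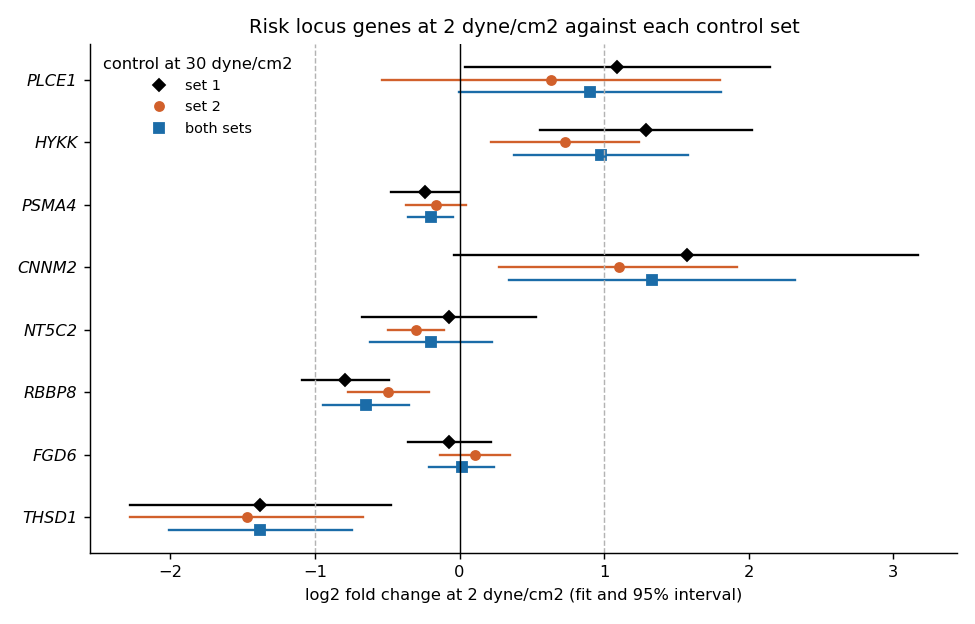
Log2 fold change of the 8 genes at 2 dyne/cm2 (horizontal axis, fitted value and 95% interval) against set 1, set 2 or both sets at 30 dyne/cm2. THSD1 keeps values of -1.47 to -1.38 under the 3 controls, whereas HYKK ranges from 0.73 to 1.29 and CNNM2 from 1.10 to 1.57.

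The genes also differed in how much of their variation followed the donor pig. Of the sum of squares of log2 CPM over the 12 libraries, the donor took 81.3% for FGD6, 67.3% for NT5C2 and 63.6% for PLCE1, against a median of 31% over all genes. The condition took 81.4% for THSD1, 78.1% for HYKK and 57.3% for RBBP8, against a median of 41.8%. For HYKK and THSD1 the donor took 2.05% and 2%. The rest, neither donor nor condition, was 5.17% for RBBP8 and 31.6% for CNNM2.

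Each gene was then set beside relatives or partners by function. The calls in these lists stand beside 9.6% of all genes called at 2 vs. 30 dyne/cm2 and 2.2% at 80 vs. 30 dyne/cm2. HYKK acts on hydroxylysine, and of the 4 other tested genes that make or process this residue 1 was called. PLOD2, a lysyl hydroxylase of collagen, was up-regulated at 2 vs. 30 dyne/cm2 with a mean of 669 ± 172 CPM against 326 ± 59.5 CPM (SD, n = 3), a log2 fold change of 1.02 (SE 0.22, adjusted p = 0.0302, edgeR). It was up in 3 of 3 donors, with log2 ratios of 0.67, 0.75 and 1.65. The call was lost without donor 2 (adjusted p = 0.0675), and the value was below 2-fold without donor 3 (0.72) and against set 2 (0.75). PLOD2 differed by -0.76 (adjusted p = 0.0558) at 80 vs. 30 dyne/cm2, and PLOD3 by 0.62 (adjusted p = 0.0128, below 2-fold).

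Around THSD1, 8 genes that share its thrombospondin type repeat or act in adhesion to the matrix were tested. Their median log2 difference was -0.12 at 2 vs. 30 dyne/cm2. Among the adhesion genes, PXN was lower (-0.54, adjusted p = 0.045, edgeR) but below 2-fold. TLN1 (0.38), TLN2 (0.90) and VCL (0.62) had positive values and ITGB1 (-0.43) and PTK2 (-0.02) negative ones, none past the adjusted p. Only THSD4, a matrix protein with thrombospondin repeats, was called. It had 0.542 ± 0.273 CPM at 2 dyne/cm2 and 7.07 ± 7.62 CPM in set 1, a log2 fold change of -3.32 (SE 0.53, adjusted p = 0.0163, edgeR) with a decrease in 3 of 3 donors. Supra-high WSS up-regulated it, with 4.66 ± 4.48 CPM in set 2 and 20.7 ± 14.1 CPM at 80 dyne/cm2, a log2 fold change of 2.36 (SE 0.23, adjusted p = 0.00369) and an increase in 3 of 3 donors. THSD4 passed the filter at 2 vs. 30 dyne/cm2 through the 3 libraries of set 1, where it was high, so a gene at its level had to differ to be tested at all. Both calls needed the donor term, and the adjusted p was 0.0532 and 0.578 without it. With a donor left out, THSD4 did not pass the filter at 2 vs. 30 dyne/cm2, and its call at 80 dyne/cm2 was kept.

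Among the 9 other phospholipase C genes tested at 2 vs. 30 dyne/cm2, PLCG2, a phospholipase activated by tyrosine kinases, was down-regulated by 1.25 on the log2 scale (SE 0.12, adjusted p = 0.00666, edgeR), from 148 ± 21.8 to 61.6 ± 1.94 CPM. Its within-donor log2 ratios were -1.31, -0.97 and -1.48. PLCB1 was lower and PLCB3 and PLCL1 were higher at an adjusted p under 0.05 but below 2-fold. The median of the 9 was -0.14. None of 10 was called by edgeR at 80 vs. 30 dyne/cm2, and 1, PLCB4 at -0.62 (adjusted p = 0.0217), passed the adjusted p alone, as 8.4% of all genes did.

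CNNM2 was set beside 12 other CNNM proteins and magnesium transporters or partners. Of these, CNNM4, a close relative, was up-regulated at 2 vs. 30 dyne/cm2, with 54.8 ± 48.0 CPM against 12.3 ± 1.75 CPM and a log2 fold change of 1.82 (SE 0.43, adjusted p = 0.0373, edgeR). As for CNNM2, donor 3 had the largest ratio, 3.09 against 1.18 and 1.19 in donors 1 and 2. The call was lost without donor 2 (adjusted p = 0.0665) and without the donor term (adjusted p = 0.0702). MAGT1, SLC41A1 and PTP4A2 were lower at an adjusted p under 0.05 but below 2-fold, and the median of the 12 was -0.02. Of the 12 genes, 0 were called at 80 vs. 30 dyne/cm2, and SLC41A1 passed the adjusted p alone at 0.37.

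The 10 other subunits of the proteasome core that could be tested had values close to one another. At 2 vs. 30 dyne/cm2 their log2 differences were all below 0, from -0.51 to -0.21 with a median of -0.29, beside -0.24 for PSMA4 and a median of 0.0025 over all genes. None was called, and 4 (PSMA1, PSMA5, PSMB2 and PSMB3) passed an adjusted p under 0.05 in edgeR. Under supra-high WSS all 10 lay between 0.0042 and 0.36, and PSMB3 passed the adjusted p alone (0.0366). In the test of the difference between responses, 8 of the 10 were lower at an adjusted p under 0.05, against 17.9% of all genes.

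RBBP8 was set beside 9 other genes of DNA end trimming and its partners. At 2 vs. 30 dyne/cm2 none was called and 1, BARD1, a partner of BRCA1, was lower at an adjusted p under 0.05, by -0.59 (adjusted p = 0.0405, edgeR). Their median was -0.39, with a range of -0.59 to 0.16, so RBBP8 at -0.79 was outside that range. Under supra-high WSS none was called and the median was -0.38, beside -0.0008 for RBBP8. In the test of the difference none of these 9 passed, and RBBP8 did.

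For NT5C2, 4 other nucleotidases were tested. NT5E, the CD73 enzyme that makes adenosine at the cell surface, was down-regulated at 2 vs. 30 dyne/cm2 by 1.36 on the log2 scale (SE 0.33, adjusted p = 0.0395, edgeR) and up-regulated by 1.08 at 80 vs. 30 dyne/cm2 (SE 0.22, adjusted p = 0.0293). Its levels were low, at 0.984 ± 0.0361 CPM at 2 dyne/cm2, 2.76 ± 1.47 in set 1, 1.66 ± 0.439 in set 2 and 3.64 ± 1.57 CPM at 80 dyne/cm2. NT5E, too, passed the filter at 2 vs. 30 dyne/cm2 through set 1, since it lay at the limit of 1 CPM at 2 dyne/cm2. Both calls were lost without the donor term (adjusted p = 0.0693 and 0.576) and against the other set (adjusted p = 0.0844 and 0.535). The call at 80 dyne/cm2 was also lost without donor 2 (adjusted p = 0.133) or donor 3 (adjusted p = 0.199), and NT5E did not pass the filter at 2 vs. 30 dyne/cm2 with a donor left out. The 3 other FGD exchange factors tested had -0.46 to 0.45 over both comparisons, and none was called.

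SOX17, itself not analysed here, is a transcription factor of arterial ECs that works with the Notch pathway. The 6 related or arterial genes tested were SOX18, DLL4, NOTCH4, EFNB2, CXCR4 and UNC5B. Of these, DLL4, an arterial Notch ligand, was down-regulated at 2 vs. 30 dyne/cm2 by 1.55 on the log2 scale (SE 0.19, adjusted p = 0.00905, edgeR). Its CPM was 34.4 ± 26.7 against 105 ± 99.5, a spread between donors larger than the difference, and the call was lost without the donor term (adjusted p = 0.364) and against set 2 (-0.60, adjusted p = 0.251). Over the 6 genes the median log2 difference was -0.40 under low WSS and 0.29 under supra-high WSS, and under the latter 0 were called.

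**Figure D4:**
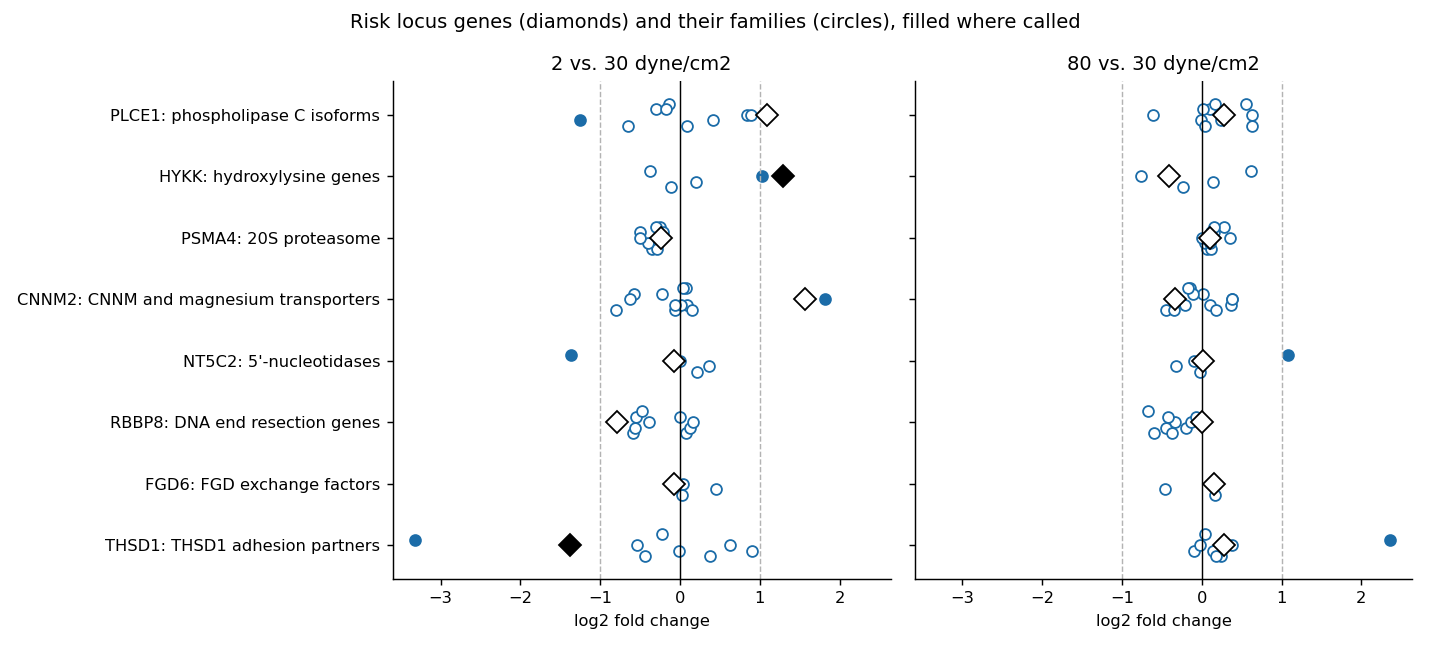
Log2 fold change of each risk locus gene (diamond) and of the tested genes of its family or partner list (circles), at 2 vs. 30 dyne/cm2 (left) and 80 vs. 30 dyne/cm2 (right), filled where called, with dashed lines at 2-fold. At left the filled circles are PLCG2 (-1.25), PLOD2 (1.02), CNNM4 (1.82), NT5E (-1.36) and THSD4 (-3.32), and all 10 proteasome circles lie to the left of 0.

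Neighbors on the chromosome were examined because a risk locus can span several genes. For each of the 8 genes the 3 nearest protein-coding genes on either side were taken from the RefSeq annotation of Sscrofa11.1, and 23 of them could be tested. At 2 vs. 30 dyne/cm2, 2 of 23 were called, against 9.6% of all genes, and the median of the 23 was 0.01. At 80 vs. 30 dyne/cm2, 1 of 23 was called, against 2.2% of all genes. CABLES1, a cyclin-dependent kinase adaptor 96277 bases from RBBP8, was up-regulated from 58.6 ± 17.9 to 176 ± 89.1 CPM. Its log2 fold change was 1.51 (SE 0.14, adjusted p = 0.00615, edgeR), up in 3 of 3 donors, and was called without each donor and against set 2, but not without the donor term (adjusted p = 0.0552). RBBP8 and its nearest neighbor on that side thus had values of opposite sign at low WSS.

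TMCC3, a membrane protein 179753 bases from FGD6, was up-regulated at 2 vs. 30 dyne/cm2 by 1.44 on the log2 scale (SE 0.26, adjusted p = 0.0204, edgeR). It was down-regulated at 80 vs. 30 dyne/cm2, with 1.15 ± 0.704 CPM against 3.99 ± 2.04 CPM, a log2 fold change of -1.83 (SE 0.21, adjusted p = 0.00541). The call at 2 dyne/cm2 was lost without donor 2 (adjusted p = 0.069) or donor 3 (adjusted p = 0.062), and that at 80 dyne/cm2 without donor 3 (adjusted p = 0.0627). Neither held without the donor term (adjusted p = 0.0544 and 0.578). Against the other set TMCC3 was at 0.60 and -0.97. The tested genes next to HYKK, THSD1, PLCE1 and CNNM2 were not called in either comparison. Near HYKK, CHRNA3, CHRNA5 and CRABP1 were not tested at 2 vs. 30 dyne/cm2, and WDR61 had no matching identifier.

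**Figure D5:**
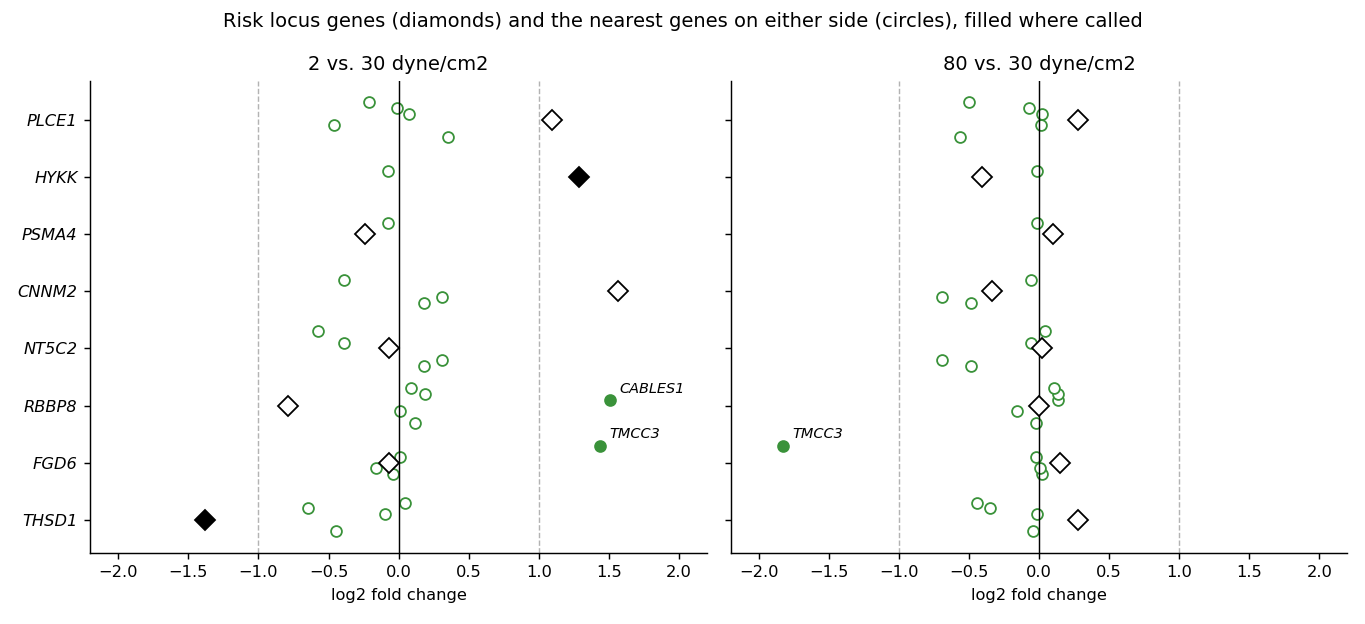
Log2 fold change of each risk locus gene (diamond) and of the tested genes among the 3 nearest on either side (circles, stacked in chromosomal order), at 2 vs. 30 dyne/cm2 (left) and 80 vs. 30 dyne/cm2 (right), filled where called, with dashed lines at 2-fold. The named filled circles are CABLES1 (1.51) beside RBBP8 and TMCC3 (1.44 at left, -1.83 at right) near FGD6.

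The genes whose levels followed HYKK and THSD1 most closely were found by Pearson correlation of log2 CPM, after removal of the donor means, over the 12 libraries and among 10138 genes. They were ZDHHC4 (r = 0.98), NABP2 (r = 0.97) and RHBDD3 (r = 0.97) for HYKK, and PDLIM2 (r = 0.98), TNS3 (r = 0.98) and PWWP2B (r = 0.98) for THSD1. The libraries share conditions and donors, and these values describe likeness over the same 12 cultures.

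Other genes tied to IA, by locus, by family studies or as older candidates, were listed as well. Of 27 such genes 22 were matched and 16 could be tested in each comparison, with a median log2 difference of 0.27 at 2 vs. 30 dyne/cm2 and -0.17 at 80 vs. 30 dyne/cm2. COL3A1, a fibrillar collagen of the vessel wall, was the one called, against 9.6% and 2.2% of all genes. It was up-regulated at 2 dyne/cm2, with 786 ± 399 CPM against 182 ± 37.0 CPM, a log2 fold change of 1.97 (SE 0.24, adjusted p = 0.00905, edgeR), and it was called without each donor, against set 2 and without the donor term. Supra-high WSS down-regulated it, with 51.4 ± 14.9 CPM against 243 ± 221 CPM, a log2 fold change of -1.90 (SE 0.35, adjusted p = 0.0203).

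The call of COL3A1 at 80 dyne/cm2 was lost without donor 2 (-2.05, adjusted p = 0.0569) and without the donor term (-2.23, adjusted p = 0.504), with estimates no smaller than with all libraries. Its within-donor log2 ratios were 2.40, 1.29 and 2.21 at low WSS and -3.07, -1.66 and -1.01 at supra-high WSS. The fibroblast marker PDGFRA was up-regulated at 2 vs. 30 dyne/cm2 as well (1.09, SE 0.23, adjusted p = 0.03, edgeR), at a level of 3.60 ± 1.12 CPM, and its part in the collagen level was not tested. That call was lost without donor 1 (adjusted p = 0.114), without donor 3 (adjusted p = 0.0827), without the donor term (adjusted p = 0.0949) and against set 2 (adjusted p = 0.116). ATP2B1, BET1L and LOX were higher at 2 dyne/cm2 at an adjusted p under 0.05 but below 2-fold.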

How the data were processed

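The authors sequenced RNA of 12 cultures, with base calling by CASAVA 1.8.2, mapped reads with STAR 2.4 to Sscrofa11.1 and counted uniquely mapped reads per gene with featureCounts 1.4.6, per the study's methods and the submitters' processing notes. The deposited table holds raw counts of 21153 genes, not normalized. The authors' strand setting is not given in the sources used here. Symbols were available for 14572 genes (68.9%), from a table of gene identifiers, and coordinates are those of RefSeq on Sscrofa11.1.

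Counts were tested with edgeR 4.0.16 (R 4.3.3) by the quasi-likelihood test, with TMM factors, a donor term, genes that reached 1 CPM in 3 or more of the compared libraries, and Benjamini-Hochberg adjustment over all genes tested. A call needed 2-fold or more together with an adjusted p below 0.05, and in the difference between responses the adjusted p alone. CPM values are TMM-normalized over 12 libraries, and fitted fold changes come from each comparison's own fit. Intervals cover 95%. Within-donor log2 ratios used a pseudocount of 0.5. Levels were not divided by gene length and are compared within a gene.

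The donor term follows the study's methods, which set cultures of 1 donor and passage against each other, and the labels carry a donor letter with each replicate number. Deviations from the group means correlated at 0.687 to 0.879 in 18 pairs of libraries of the same number and at -0.552 to -0.179 in 36 other pairs, over 11568 genes. GEO's labels do not say which of the sets at 30 dyne/cm2 belongs to which WSS, and the comparisons were fixed as set 1 with 2 and set 2 with 80 dyne/cm2. With 3 donors, p-values rest on few degrees of freedom.

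The genes and lists were chosen with earlier results of these data known. Named genes are all members, of each list and of the chromosomal neighbors those called in either comparison (at most 4 a list, the list not reported here left out), and for called members the 3 genes most alike. Genes that passed the adjusted p alone were named after their values were seen, as were those chosen as examples otherwise. Lists covered other IA genes, families or partners of the members, flow markers and markers of endothelial, smooth muscle, fibroblast and leukocyte cells. One list is not reported here.

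Alternatives were no donor term, RLE size factors, DESeq2 1.42.0, other filters, a dispersion over 12 libraries, the other or both sets at 30 dyne/cm2, the adjusted p alone, and leaving out each donor with both its libraries. A fit with the sets exchanged in the difference between responses was added after the data were seen. On simulated counts with known changes, the test found 42 of 100 genes changed 2-fold and 99 of 100 changed 4-fold at 2 vs. 30 dyne/cm2, and 53 and 99 at 80 vs. 30 dyne/cm2, with 1 and 0 false calls. Since a call needs an estimate of 2-fold or more, genes set at 2-fold can miss it through the fold cut alone. The counts at that size therefore do not measure the power of the test by itself. In the difference between responses, called by the adjusted p alone, it found 69 and 99, with 7 false calls at either size.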

Additional observations from a re-analysis of the deposited data

Results flagged for a closer look

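The responses of 3 of 8 genes differed between low and supra-high WSS in the direct test over 12 libraries (edgeR's quasi-likelihood test, adjusted p under 0.05), a share close to the 37.1% of all genes that passed it. HYKK was higher at 2 than at 80 dyne/cm2, each relative to its own control, by 1.70 on the log2 scale. THSD1 differed by -1.59 and RBBP8 by -0.77, both lower at low WSS. With the sets at 30 dyne/cm2 exchanged, THSD1 alone of the 3 still passed. According to the labels, but not to the study's methods, slide type and seeding density differed between the low and the supra-high experiments. Each response was taken against its own control. Any effect of slide type or seeding density on a response still cannot be told apart from the aneurysmal WSS compared.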

How the results depend on the processing

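Of the 8 genes, 2 were called at 2 vs. 30 dyne/cm2. The number was 4 with DESeq2, 1 against the other set at 30 dyne/cm2, 3 with the dispersion over 12 libraries and with the adjusted p alone, and 0 to 2 when 1 donor was left out, with 0 without donor 1 and without donor 3. It was 0 at 80 vs. 30 dyne/cm2 and between the sets in every alternative. In the difference between responses it was 3, and 1 to 4 when 1 donor was left out, with 1 without donor 1 (RBBP8) and without donor 3. It was 1 (THSD1) with the sets exchanged, an alternative chosen after seeing the data, under which PLCE1 was at -0.011 and FGD6 at 0.15, both with the sign turned. Without the replicate block, which takes the donor pairing out of the fit, the counts were 2, 0, 2 and 0. Over all values of the 8 genes under the alternatives, 326 of 363 kept their direction and their side of the thresholds. This count includes the adjusted p alone, which reuses the main fit and so could not turn a direction. It also includes many values of genes not called in the main fit. It is therefore no measure of how firm the calls are.

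Signs turned in 16 of 363, all in genes not called there. FGD6 at 2 dyne/cm2 was 0.10 against the other set, 0.014 against both sets and 0.043 without donor 3. NT5C2 without donor 2 was 0.27 at 2 dyne/cm2, -0.17 at 80 dyne/cm2 and 0.43 in the difference, and leaving out each donor gave -0.32 to 0.27 and -0.49 to 0.43 in the first and last of these. RBBP8 at 80 dyne/cm2 was 0.0062 without the replicate block, 0.00013 with at least 10 counts in every library, 0.0026 with filterByExpr and 0.0396 without donor 3, the highest of a leave-one-out range that began at -0.0337. Against the other set at 80 dyne/cm2, HYKK was 0.15, CNNM2 0.17 and FGD6 -0.035. PLCE1 at 80 dyne/cm2 was -0.025 without donor 3. The causes were not tested.

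Over all genes, calls at 2 vs. 30 dyne/cm2 numbered 1078, 635 without the block and 2895 with the adjusted p alone. At 80 vs. 30 dyne/cm2 they numbered 246, and 0 without the block (929 at an unadjusted p under 0.05, 236 by DESeq2 with the block), 125 with the dispersion over 12 libraries, 24 against the other set, 84 against both sets, 132 and 136 without donors 2 and 3, and 940 with the adjusted p alone. In the difference they numbered 4294, 1746 without the block, 2403 and 1949 without donors 1 and 3, and 2568 with the sets exchanged. Between the sets they numbered 1, and 66 with DESeq2, 46 with no filter, 62 and 4 without donors 2 and 3, 2 with the adjusted p alone, and 0 without the block or without donor 1. HYKK and CNNM2 had the fewest reads, and leaving out a donor left 1 residual degree of freedom in fits of 6 libraries.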
